A study of Mus musculus with 7 samples.

Results

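The chaperones of the endoplasmic reticulum (ER) and the genes of the unfolded protein response were followed as a list of 32 mouse genes, all of which were found by symbol among the 42687 gene identifiers of the count table. The list held 15 chaperones and folding enzymes, 3 sensors and transcription factors, 7 genes of ER-associated degradation and 7 stress genes of the PERK/ATF4 type. RNA came from cells with CD24 and CD29 on their surface that were sorted by flow cytometry from digested femurs of C57BL/6 mice and are named skeletal stem cells of bone in the labels. The mice were 3 months old when they went onto a diet with 10% fat (low fat diet, LFD, 4 libraries numbered 1 to 4) or 60% fat (high fat diet, HFD, 3 libraries numbered 2 to 4), and stayed on it for 4 weeks. No genotype beyond the strain is given, and nothing in the labels says whether a library is 1 mouse or a pool.

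The ER folds the proteins that a cell secretes or sets into its membranes, and cells that lay down collagen and cartilage matrix depend heavily on it. When unfolded proteins build up, the sensors ATF6 and IRE1 (the product of Ern1, which splices the Xbp1 message) switch on genes for chaperones and for the export of misfolded proteins to the proteasome. The third sensor, PERK, slows translation and favours the transcription factor ATF4, whose targets handle amino acid supply, feedback and cell death, and ATF4 is also induced through kinases that sense other stresses, among them the heme-sensing kinase of red cell precursors.

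The promoters of the list show how its genes divide by known response elements. The ER stress response element (ERSE, CCAAT and CCACG with 9 bases between them) is the classical site of ATF6 with NF-Y, and it was searched with 3 other motifs on both strands of the RefSeq promoter windows of the GRCm38.p6 build, the same assembly as mm10, from 250 bases before to 50 bases after each start site. Windows were found for 28 of the 32 genes, and not for Manf, Hyou1, Atf6 and Derl1. ERSE was present in 9 of the 28 genes (32.1%), against 0.119% of all 32851 windows. Those 9 were 7 of 13 chaperones, 2 of 6 genes of ER-associated degradation (Syvn1 and Derl3), 0 of 2 sensors and 0 of 7 PERK/ATF4 genes. The elements are given to compare their spacers, 5′ to 3′ in the orientation of the motif, with the conserved ends in capitals; those of Calr, Creld2, Derl3 and the first of Hsp90b1 lie on the strand opposite to the gene.
Hspa5: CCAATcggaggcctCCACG
Hsp90b1, first: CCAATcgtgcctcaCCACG
Hsp90b1, second: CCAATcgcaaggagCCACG
Creld2: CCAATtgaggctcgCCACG
Dnajc3: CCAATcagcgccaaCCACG
Pdia6: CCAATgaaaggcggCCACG
Calr: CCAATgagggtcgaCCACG
Canx: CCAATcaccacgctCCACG
Syvn1: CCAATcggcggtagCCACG
Derl3: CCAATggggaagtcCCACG

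The shorter ERSE-II (ATTGG and CCACG with 1 base between them) was found in Dnajb11 and Herpud1, which is 7.14% of the 28 genes, against 0.0365% of all windows. The composite site of ATF4 with C/EBP proteins (searched as TGATGNAA) was found in 4 genes, Asns, Chac1, Trib3 and Herpud1 (14.3%, against 3.97% of all windows), 3 of them among the 7 PERK/ATF4 genes. The UPRE core (TGACGTGG) matched none of the 28 genes and 0.676% of all windows. No match of one motif overlapped a match of another in these genes. The 250 bases before the start are shown for Hspa5 and Creld2, chaperones of the ERSE kind, for Herpud1, the gene with matches of both kinds, and for Chac1, a gene with the ATF4 type of match only. They are written 5′ to 3′ along the gene, all on the plus strand of the chromosome, with matches in capitals. The ERSE starts 65 bases before the start of Hspa5 and 126 bases before that of Creld2, and the ATF4 match lies 112 bases before that of Herpud1 and 193 before that of Chac1.
Hspa5, chr2:34771840-34772089: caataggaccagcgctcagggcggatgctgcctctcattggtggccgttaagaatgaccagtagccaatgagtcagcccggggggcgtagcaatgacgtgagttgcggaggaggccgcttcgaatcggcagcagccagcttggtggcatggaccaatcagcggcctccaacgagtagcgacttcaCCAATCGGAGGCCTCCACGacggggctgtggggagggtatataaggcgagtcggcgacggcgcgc
Creld2, chr15:88819396-88819645: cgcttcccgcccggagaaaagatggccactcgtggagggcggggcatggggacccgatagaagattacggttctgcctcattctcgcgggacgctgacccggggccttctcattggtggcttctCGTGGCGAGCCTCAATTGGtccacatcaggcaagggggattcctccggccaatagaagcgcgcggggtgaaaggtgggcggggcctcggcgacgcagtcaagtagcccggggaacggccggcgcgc
Herpud1, chr8:94386179-94386428: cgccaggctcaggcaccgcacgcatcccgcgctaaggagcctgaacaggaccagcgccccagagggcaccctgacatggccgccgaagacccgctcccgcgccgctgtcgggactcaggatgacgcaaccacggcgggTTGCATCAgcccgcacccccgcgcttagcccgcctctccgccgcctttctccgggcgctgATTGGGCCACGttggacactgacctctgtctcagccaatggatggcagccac
Chac1, chr2:119350992-119351241: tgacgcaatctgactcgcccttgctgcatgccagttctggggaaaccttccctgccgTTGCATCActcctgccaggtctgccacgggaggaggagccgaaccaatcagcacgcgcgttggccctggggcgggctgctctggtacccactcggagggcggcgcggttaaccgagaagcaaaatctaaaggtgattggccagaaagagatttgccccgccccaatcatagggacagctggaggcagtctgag

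The libraries held 17391613 to 24681838 counts, and all 32 genes passed the filter on low counts. Values are CPM, counts scaled to the TMM-adjusted library total; an error after ± is the SD over 4 LFD or 3 HFD libraries. Log2 fold changes are HFD against LFD, and the error after their ± is the SE of edgeR's quasi-likelihood test. Counts of Xist were 257 to 526 with LFD and 0 in every HFD library, while 4 Y-linked genes together had 1 to 5 and 2494 to 3405 counts, so that diet and sex cannot be told apart in any comparison below. Cd24a, for the sorted surface antigen, ranged from 774 to 4852 CPM and Itgb1, for CD29, from 368 to 497 CPM, and the blood cell gene Ptprc, for CD45, ranged from 0.117 to 24.8 CPM with LFD and from 49.6 to 55.9 CPM with HFD. Erythroid transcripts were abundant in these sorted cells. The sum of 10 erythroid genes was 92601, 139750, 160458 and 113800 CPM for LFD 1 to 4 and 22567, 74964 and 108533 CPM for HFD 2 to 4.

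Chaperones had higher values with HFD, while PERK/ATF4 genes lay on both sides of 0. All 15 chaperones had a positive log2 fold change (median 0.53), as did 2 of 3 sensors, 5 of 7 genes of ER-associated degradation (median 0.23) and 4 of 7 PERK/ATF4 genes (median 0.04), where 51.5% of all 14304 genes tested were higher and their median was 0.02. None of the 32 passed an adjusted p of 0.05 with edgeR, where 0.0350% of all genes did (0.0280% as higher with HFD). Those were 5 genes, of which 4 were the sex-linked Xist, Ddx3y, Uty and Eif2s3y. An unadjusted p under 0.05 was found for 9 of the 32 (28.1%, against 7.53% of all genes), all of them higher with HFD (against 5.18% of all genes) and none lower (against 2.35%). Of these 9, 8 were chaperones and the other was Edem1. Leaving out single libraries moved the number from 9 to between 4 (without HFD 3) and 14 (without LFD 1), with 5 without LFD 2, and the erythroid share of counts as a covariate gave 5. Of the 14 genes 13 were higher with HFD and 1, Syvn1, was lower. Every HFD library lay above every LFD library for 9 genes (28.1%, against 8.40% of all genes), namely the same ones with Calr in the place of Pdia4, and below for 0 (against 3.47%). DESeq2, run as an alternative, called 4 genes, all of them chaperones and higher with HFD (12.5% of the list, against 2.37% of all genes, or 1.87% as higher). The list was drawn up with earlier results of these data known, so these shares describe it and do not test it.

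**Figure D1:**
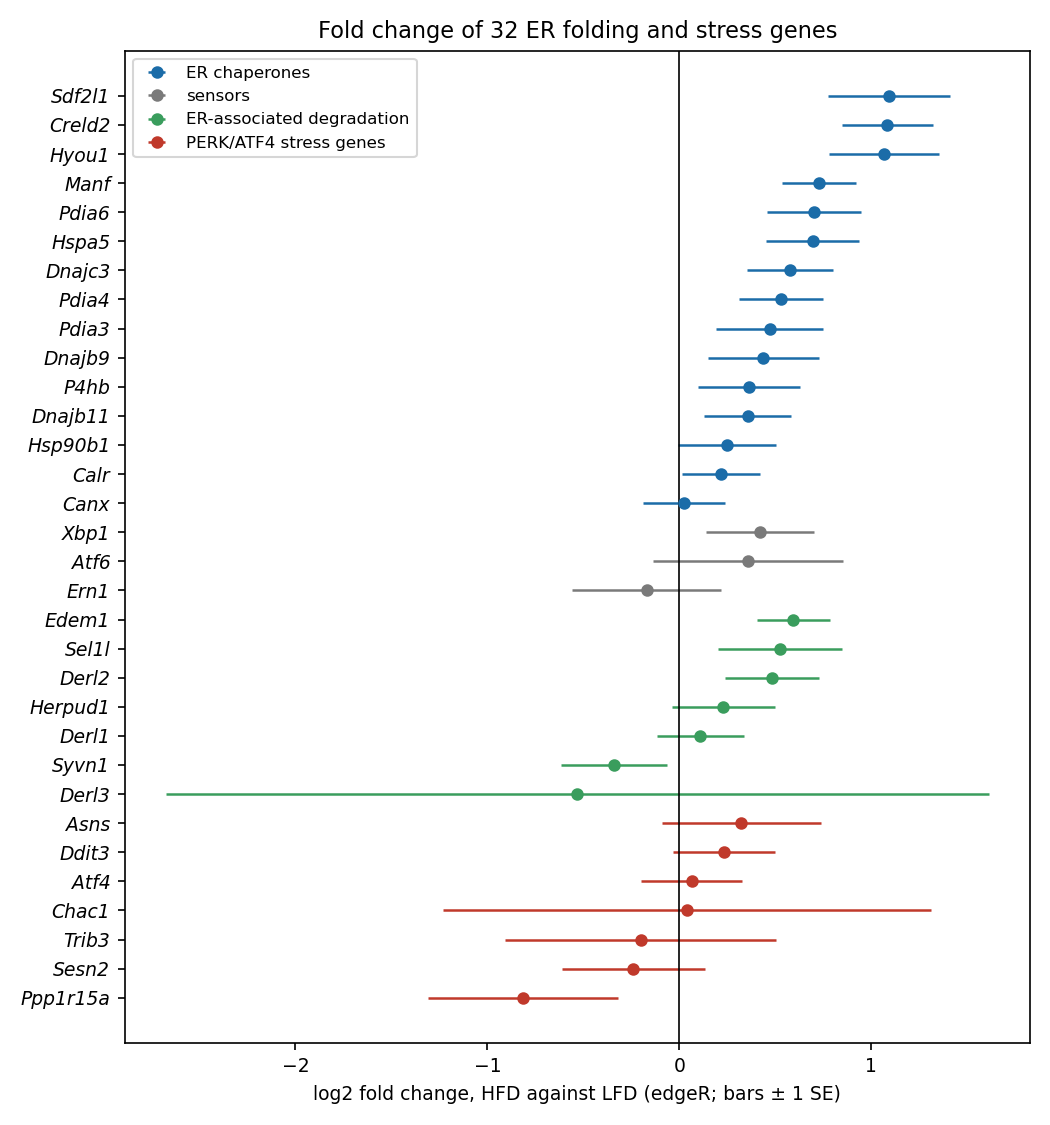
Log2 fold change of HFD against LFD for each of the 32 genes on the horizontal axis, with bars of 1 SE, coloured by role and ordered within it. The 15 chaperones lie between 0.02 (Canx) and 1.09 (Sdf2l1), and the 7 PERK/ATF4 genes lie on both sides of 0, from -0.81 (Ppp1r15a) to 0.32 (Asns).

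Among the chaperones the largest fold changes belonged to accessory folding factors rather than to the abundant core. Creld2, an ER-resident protein with EGF-like domains that is known from cartilage and bone matrix disorders (chromosome 15, 88819646 to 88826683), measured 45.3, 26.8, 34.5 and 43.4 CPM for LFD 1 to 4 and 93.6, 78.8 and 66.1 CPM for HFD 2 to 4. The lowest HFD library was above the highest LFD library, and the log2 fold change was 1.08 ± 0.24 (edgeR adjusted p = 0.268, unadjusted p = 0.00182), the smallest p of the list. Sdf2l1, a partner of the ER DnaJ proteins that keeps clients from aggregating (chromosome 16, 17130138 to 17132383), measured 35.0, 13.5, 24.2 and 31.8 CPM with LFD and 58.0, 59.8 and 49.6 CPM with HFD. The groups were again apart, although the LFD libraries differed among themselves by more than those of HFD (log2 fold change 1.09 ± 0.32).

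Hyou1, a large Hsp70-type chaperone that exchanges the nucleotide of BiP (chromosome 9, 44379490 to 44392369), measured 24.3, 12.2, 14.6 and 17.2 CPM with LFD and 31.7, 32.7 and 43.0 CPM with HFD. All HFD libraries were higher, and HFD 4 was the highest, and the log2 fold change was 1.07 ± 0.29. Manf, a secreted factor that binds BiP and is released under ER stress (chromosome 9, 106838312 to 106891979), measured 63.0, 52.1, 58.6 and 65.2 CPM with LFD and 96.9, 119 and 81.3 CPM with HFD. Its LFD libraries lay close together and below every HFD library (log2 fold change 0.73 ± 0.19). Manf shares 326 exon bases with other annotated genes, and the strand setting of the counting is not given in the sources used here, so some of its reads may belong to them.

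Hspa5 encodes BiP, the main Hsp70 of the ER that also holds the sensors inactive (chromosome 2, 34771970 to 34777547). It measured 1023, 973, 1122 and 1269 CPM for LFD 1 to 4 and 1783, 1931 and 1620 CPM for HFD 2 to 4. Groups did not overlap, and the log2 fold change was 0.70 ± 0.24 (edgeR adjusted p = 0.533). Pdia6, a protein disulfide isomerase that also tunes the IRE1 and PERK sensors, measured 309, 230, 192 and 302 CPM with LFD and 476, 422 and 362 CPM with HFD. The groups were apart here too (log2 fold change 0.70 ± 0.25), and so were those of Dnajc3, a co-chaperone of BiP also known as an inhibitor of PERK, with 191, 115, 149 and 170 CPM with LFD and 257, 229 and 214 CPM with HFD (log2 fold change 0.58 ± 0.22).

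In DESeq2 the adjusted p was 0.00426 for Hspa5, 0.00670 for Creld2, 0.0284 for Manf and 0.0344 for Hyou1. Over the 17 alternatives run the adjusted p of these 4 genes reached 0.9998 or more, and DESeq2 was the only one that called them. Their direction was the same in all 17, and the log2 fold change ranged from 0.64 to 0.77 for Hspa5, from 0.78 to 1.21 for Creld2, from 0.59 to 0.86 for Manf and from 0.92 to 1.29 for Hyou1.

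The other chaperones had smaller differences. Of the disulfide isomerases, Pdia4 measured 181 ± 28.6 CPM with LFD and 261 ± 43.8 CPM with HFD (log2 fold change 0.53 ± 0.22, unadjusted p = 0.0409 in edgeR), and HFD 4 (212 CPM) was below LFD 1 (219 CPM). Pdia3, which works on glycoproteins with calnexin and calreticulin, measured 456 ± 126 and 632 ± 91.9 CPM, and P4hb, which is also the beta subunit of the collagen prolyl hydroxylase, 1013 ± 172 and 1302 ± 225 CPM. The lectin chaperones had the smallest differences. Calr (calreticulin) measured 588 ± 30.8 CPM with LFD and 683 ± 15.4 CPM with HFD, a small difference (log2 fold change 0.22 ± 0.21) in which the groups nevertheless did not overlap. Canx (calnexin) measured 399 ± 44.5 and 406 ± 51.6 CPM (log2 fold change 0.02 ± 0.22), and its sign turned in 5 of 17 alternatives. Hsp90b1, for the ER Hsp90 known as GRP94, had 0.25 ± 0.26, and Dnajb9 and Dnajb11, for DnaJ co-chaperones that bring clients to BiP, had 0.44 ± 0.29 and 0.36 ± 0.23, all with overlapping groups. Hsp90b1 shares 499 exon bases, Pdia6 shares 50 and Pdia3 shares 18 with other annotated genes.

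Chaperones with and without the promoter element overlapped in the size of their difference. The 7 chaperones with an ERSE had log2 fold changes from 0.02 to 1.08 (median 0.58), and the 6 without one in the window had 0.36 to 1.09 (median 0.45). Only exact matches were counted, and Dnajb11, among the 6, has an ERSE-II, so the split is not a clean one of presence and absence. Hspa5, Creld2, Pdia6 and Dnajc3, whose elements are printed above, were in the upper range, and Canx, Calr and Hsp90b1, which has 2 elements, in the lower. Outside the list, 28 further genes had an ERSE in a window and 7 of them were found by symbol among the genes tested. Of those, 3 were higher and 4 lower with HFD, with 0 at an unadjusted p under 0.05 in edgeR, 0 called by edgeR or DESeq2, and a median of -0.10.

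**Figure D2:**
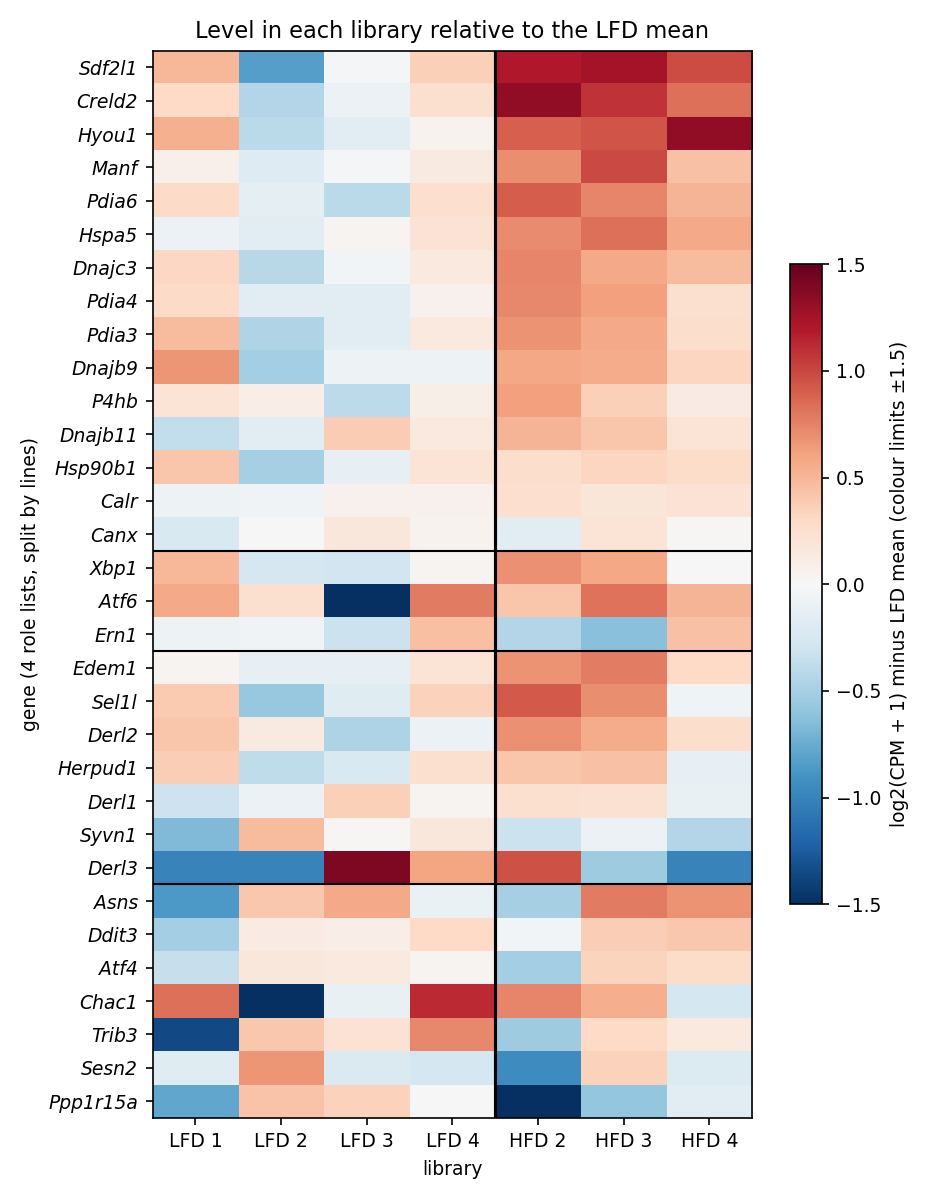
Level of each gene (rows, in 4 role lists split by lines) in each library (columns, LFD left and HFD right of the thick line), as log2(CPM + 1) minus the mean of the LFD libraries, with red for higher and blue for lower values and colours limited at 1.5. Red fills most chaperone rows of the HFD columns, whereas the PERK/ATF4 rows at the foot are blue in LFD 1 and HFD 2 for Asns, Atf4, Trib3 and Ppp1r15a.

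None of the 3 sensors had an unadjusted p under 0.05 in edgeR with all libraries, though Xbp1 did with limma-voom and without LFD 1. Xbp1 measured 245 ± 65.2 CPM with LFD and 327 ± 78.5 CPM with HFD (log2 fold change 0.42 ± 0.28); gene counts do not separate its spliced from its unspliced form. Atf6 measured 35.6 ± 18.8 and 45.7 ± 6.81 CPM, where LFD 3 alone had 9.28 CPM, and Ern1 measured 9.40 to 16.8 CPM with LFD and 7.44 to 16.6 CPM with HFD.

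In ER-associated degradation, the higher and lower values were mixed. Edem1, a lectin-like protein that hands over misfolded glycoproteins, measured 69.6, 62.1, 61.9 and 78.4 CPM with LFD and 109, 116 and 83.7 CPM with HFD. All HFD libraries were above all LFD libraries, and HFD 4 was nearest to them (log2 fold change 0.60 ± 0.19, edgeR adjusted p = 0.481, unadjusted p = 0.0143). The membrane complex genes differed in sign, with Sel1l at 0.52 ± 0.32 and its partner Syvn1, the ubiquitin ligase HRD1, at -0.34 ± 0.28 on the log2 scale. Derl2 and Derl1, for membrane proteins that help to pull clients out of the ER, had 0.49 ± 0.24 and 0.11 ± 0.23, and Herpud1, for a scaffold of the same complex, had 0.23 ± 0.27. Derl2 shares 231 exon bases and Syvn1 shares 91 exon bases with neighbours. Derl3, a form found in secretory cells such as plasma cells, had 0 counts in LFD 1, LFD 2 and HFD 4 and at most 4.30 CPM (LFD 3), too few for a statement on diet. The sum of 8 plasma cell genes overlapped between diets, at 68.1 to 416 CPM with LFD and 77.3 to 134 CPM with HFD. Jchain had 0 counts in every HFD library and also in LFD 1 and LFD 2. Mean levels of Mzb1, Sdc1 and Pou2af1 were higher with HFD. Those of Jchain, Irf4, Prdm1, Tnfrsf17 and Igkc were lower, and Igkc had 322 CPM in LFD 4.

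For 6 of the 7 PERK/ATF4 genes the group means differed by less than the SD within each diet, and Ppp1r15a was the exception. Atf4 itself (chromosome 15, 80255184 to 80257541) measured 130, 186, 183 and 170 CPM for LFD 1 to 4 and 116, 208 and 201 CPM for HFD 2 to 4. LFD 1 and HFD 2 were the low libraries of their groups, and the log2 fold change was 0.07 ± 0.26. Asns, the asparagine synthetase that ATF4 induces when amino acids are short, measured 72.8, 176, 197 and 124 CPM with LFD and 93.9, 229 and 213 CPM with HFD, with the same libraries low (0.32 ± 0.42). Trib3, a pseudokinase that dampens ATF4, was low in the same libraries, with 1.05, 5.95, 5.10 and 7.61 CPM with LFD and 2.62, 5.46 and 4.78 CPM with HFD (-0.20 ± 0.70).

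Ppp1r15a encodes GADD34, which brings a phosphatase to eIF2alpha and so ends the PERK signal (chromosome 7, 45522916 to 45526268). It measured 621, 1432, 1356 and 1070 CPM with LFD and 248, 711 and 951 CPM with HFD. HFD 2 was far below the rest and HFD 3 and HFD 4 lay within the LFD range, so that its log2 fold change of -0.81 ± 0.49 was the most negative of the list and did not pass (unadjusted p = 0.138 in edgeR). Ddit3, for the death-linked factor CHOP, measured 16.0, 25.2, 24.8 and 28.8 CPM with LFD and 22.5, 30.2 and 31.1 CPM with HFD (0.24 ± 0.27). The LFD and HFD ranges overlapped, and 81 exon bases of Ddit3 are shared with other genes, among them the antisense neighbour Mars. Sesn2, a sensor of leucine that restrains mTORC1, measured 33.9, 62.0, 33.2 and 32.1 CPM with LFD and 19.6, 49.3 and 33.5 CPM with HFD (-0.24 ± 0.37). Chac1, which breaks down glutathione, had 0 counts in LFD 2 and 37 to 140 counts in the other libraries, that is 5.31, 0, 2.30 and 6.72 CPM with LFD and 4.90, 4.20 and 1.96 CPM with HFD.

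Averaged on the log2 CPM scale, the chaperones stood at 7.48, 6.96, 7.19 and 7.40 for LFD 1 to 4 and at 7.93, 7.91 and 7.72 for HFD 2 to 4. No HFD library fell to the level of an LFD library, and the group means differed by 0.59 with an SD between libraries of 0.23 with LFD and 0.12 with HFD. The PERK/ATF4 genes stood at 4.89, 5.04, 5.55 and 5.71 with LFD and at 4.85, 5.73 and 5.52 with HFD, and the group means differed by 0.07 with SDs of 0.40 and 0.46. The chaperone mean minus the PERK/ATF4 mean was 2.59, 1.92, 1.63 and 1.69 with LFD and 3.08, 2.17 and 2.202 with HFD. LFD 1 thus exceeded HFD 3 and HFD 4 in this difference, and the groups overlapped. The median log2 fold change of the chaperones exceeded that of the PERK/ATF4 genes by 0.49, but with the erythroid share of counts as a covariate the order turned (-0.08), with medians of 0.29 and 0.37.

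**Figure D3:**
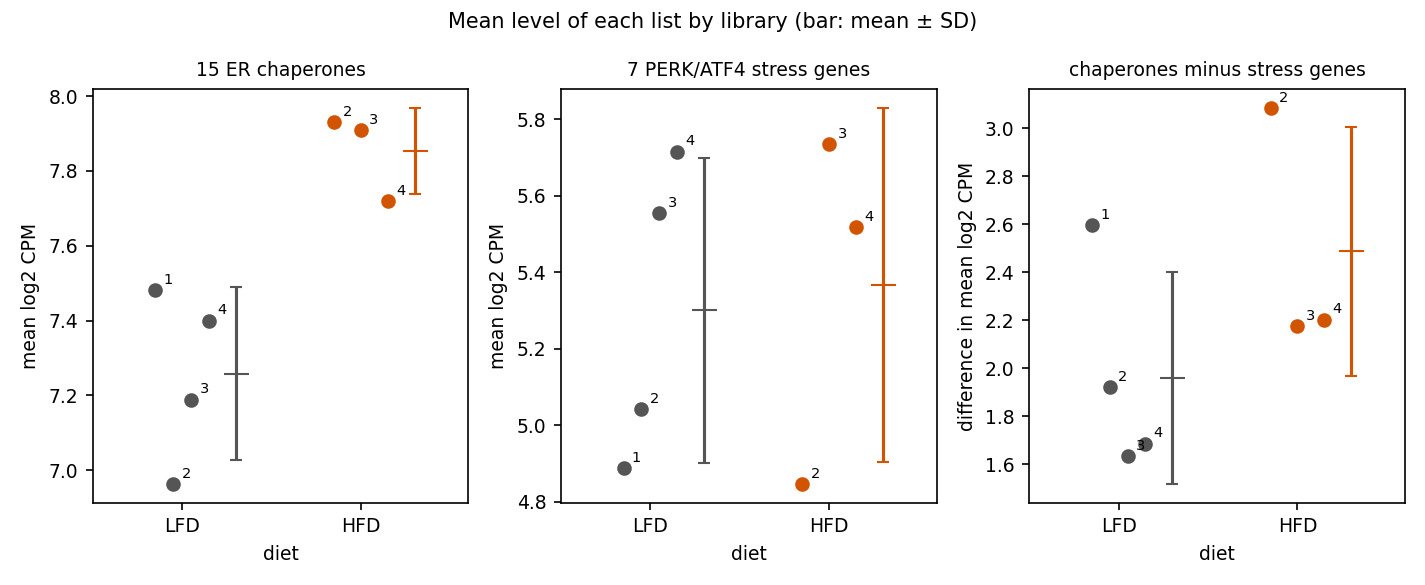
Mean log2 CPM of the 15 chaperones (left), of the 7 PERK/ATF4 genes (middle) and their difference (right) in each library, as points labelled by replicate number, with bars for the mean ± SD of each diet; the vertical scales differ. HFD points lie above all LFD points for the chaperones, and the groups overlap for the stress genes and for the difference, where LFD 1 (2.59) is above HFD 3 (2.17) and HFD 4 (2.202).

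Erythroid transcripts moved with many of the genes. The relation of each gene to the summed erythroid CPM was computed on the log2 scale across the 7 libraries, and the p-values of the 32 relations were adjusted together. Ppp1r15a followed the erythroid sum upwards (Pearson r = 0.971, exact permutation p = 0.00139, adjusted 0.0148; Spearman rho = 0.929, exact permutation p = 0.00675, adjusted 0.0216), and r was 0.889 without HFD 2 and LFD 3, the libraries farthest from the median sum, and 0.957 after the mean of each diet was taken off. Pdia4 went the other way, with r = -0.865 (exact permutation p = 0.000198, the smallest the 5040 permutations can give, adjusted 0.00634) and a perfect reverse order of ranks (rho = -1.0, exact permutation p = 0.000397, adjusted 0.0127). Its r was -0.980 without HFD 2 and LFD 3 and -0.767 within diets. Xbp1 resembled it (r = -0.818, exact permutation p = 0.000397, adjusted 0.00635; rho = -0.964, exact permutation p = 0.00278, adjusted 0.0148), with -0.959 and -0.722 in the same checks. On r, 3 of the 32 genes passed after adjustment, and on rho 12 did, namely these 3 with Sdf2l1, Creld2, Dnajc3, Pdia3, Pdia6, P4hb, Herpud1, Sel1l and Derl2, so that 7 of the 15 chaperones were among the 12. Of the chaperones 14 of 15 had a negative r. These r and rho span both diets, and the mean erythroid sum was lower with HFD, so the diet difference enters them. After the mean of each diet was taken off, r of the chaperones ranged from -0.768 (P4hb) to 0.678 (Canx). It was 0.032 for Hyou1, -0.068 for Dnajb11, -0.084 for Calr and -0.670 for Creld2. Of the PERK/ATF4 genes besides Ppp1r15a, r within diets was 0.929 for Atf4, 0.848 for Asns and 0.647 for Ddit3. It was 0.640 for Sesn2, 0.512 for Trib3 and -0.311 for Chac1. Across both diets none of these genes passed on r or rho. LFD 1 and HFD 2, the low libraries for Atf4, Asns and Trib3, also had the lowest erythroid sum of their groups. All points share the library total, of which erythroid counts are a part, and fewer cells of a type and less RNA per cell cannot be told apart in such bulk samples.

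For Hspa5 the relation did not pass, with r = -0.635 (exact permutation p = 0.0821, adjusted 0.188; rho = -0.679, exact permutation p = 0.11, adjusted 0.196), -0.655 without HFD 2 and LFD 3 and -0.139 within diets. Creld2, Hspa5, Hyou1 and Manf kept an unadjusted p under 0.05 in edgeR with the erythroid share in the model, with log2 fold changes of 0.78, 0.66, 1.13 and 0.66, and Asns joined them with 1.09. Sdf2l1 did not, although its value of 0.92 was close to the 1.09 without the covariate. Edem1, Pdia6, Dnajc3 and Pdia4 did not either, at 0.44, 0.44, 0.39 and 0.27, against 0.60, 0.70, 0.58 and 0.53 without it. Ppp1r15a had a log2 fold change of 0.10 in that model, against -0.81 without it.

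**Figure D4:**
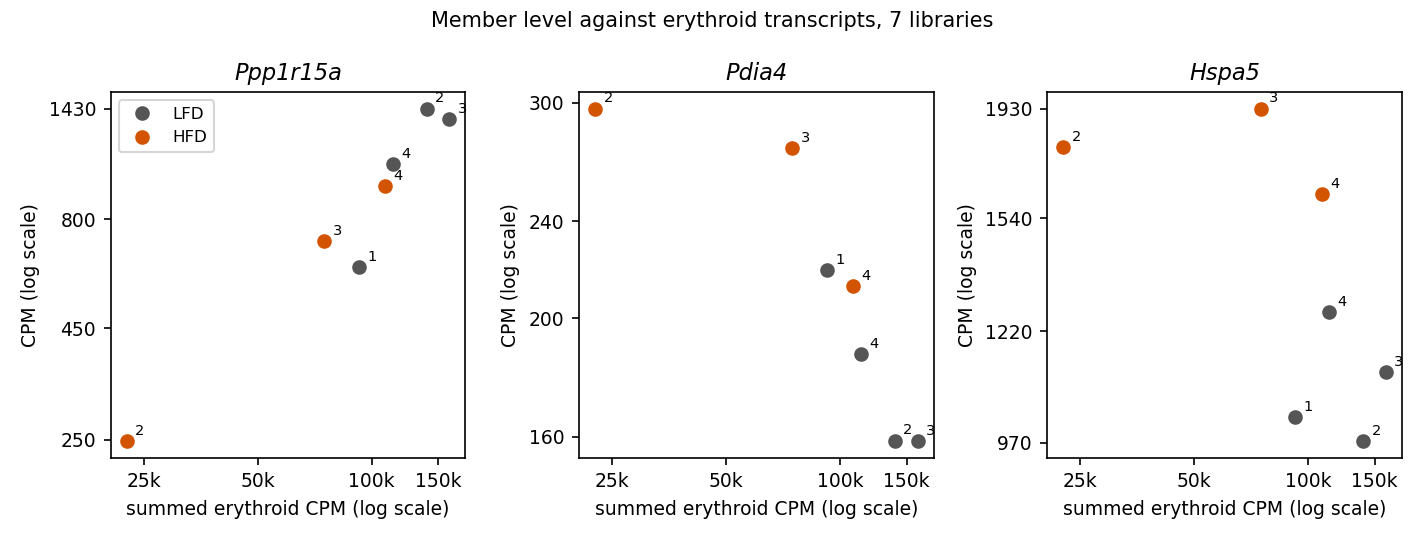
CPM of Ppp1r15a, Pdia4 and Hspa5 (vertical axes, log scale) against the summed CPM of 10 erythroid genes (horizontal axis, log scale) in the 7 libraries, coloured by diet and labelled by replicate number. Ppp1r15a tends to be higher where the erythroid sum is higher and Pdia4 lower, while for Hspa5 the HFD points, from 1620 to 1931 CPM, lie above all LFD points.

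Sums of some other cell type lists differed between the groups as well, in the direction of the chaperones. The summed level of 12 granulocyte genes was 956 to 5501 CPM with LFD and 8752 to 16638 CPM with HFD, that of 11 monocyte and macrophage genes 208 to 839 and 1664 to 2142 CPM, and that of 8 genes of reticular stroma 198 to 438 and 1550 to 2683 CPM, none with overlap. All members of these lists were tested, and 8, 5 and 5 of them had an unadjusted p under 0.05 in edgeR, where 7.53% of all genes did, but 0 passed the adjusted threshold. Most of the monocyte and macrophage sum was Lyz2, at 116 to 704 CPM with LFD and 1462 to 1919 CPM with HFD. In that list Adgre1, C1qa, C1qb and C1qc overlapped between diets, and the other genes did not. Defining genes were present at very different levels, with S100a8 at 1948 to 3704 CPM and Cxcl12 at 1118 to 1986 CPM with HFD, while the macrophage genes Fcgr1 and C1qa had at most 3.32 CPM in any library and Fcgr1 had 0 counts in every LFD library. The part of these cells in the chaperone differences was not tested. Osteoblast and chondrocyte sums overlapped between diets, at 16990 to 46077 and 43117 to 69702 CPM for the first and 23125 to 47447 and 36279 to 62359 CPM for the second. Sums with a lower mean in HFD overlapped too. They were 15.9 to 46.3 and 5.56 to 18.7 CPM for endothelial genes and 17.1 to 35.8 and 7.48 to 23.5 CPM for megakaryocyte genes. B lineage genes summed to 20.8 to 499 and 128 to 240 CPM, and Ighm alone had 442 CPM in LFD 4. Of the 9 B lineage genes tested, only Ighm was lower with HFD, and their median log2 fold change was 0.80. Ebf1 (0.80 ± 0.30) was the only one of them whose groups did not overlap. Genes of the response to tissue digestion, such as Fos and Egr1, summed to 11143 to 19310 CPM with LFD and 16060 to 17422 CPM with HFD.

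The main secreted collagens are given beside the chaperones, with no test of a relation. Col1a1, Col1a2 and Col2a1 together measured 18870, 67153, 57652 and 46714 CPM for LFD 1 to 4 and 76263, 77556 and 63179 CPM for HFD 2 to 4, and the groups overlapped. The chaperones together measured 5039, 4232, 4360 and 5099 CPM for LFD 1 to 4 and 6887, 6707 and 5813 CPM for HFD 2 to 4, without overlap. HFD 2 and HFD 3 were the highest libraries in both sums and HFD 4 the lowest of its group in both, whereas within LFD the library with the most collagen, LFD 2, had the lowest chaperone sum.

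Per kilobase of annotated exon, the order of levels within LFD was led by Ppp1r15a (381 ± 125 CPM per kb), P4hb (354 ± 60.2), Hspa5 (259 ± 30.9), Calr (204 ± 10.7) and Pdia3 (145 ± 40.0). Ppp1r15a and P4hb did not differ beyond their spread. In HFD the leading levels were P4hb (455 ± 78.8 CPM per kb) and Hspa5 (420 ± 36.8), again within their spread, followed by Calr (237 ± 5.36), Ppp1r15a (217 ± 122) and Pdia3 (201 ± 29.3), which lay within the spread of Ppp1r15a. The remaining 27 genes reached at most 99.9 CPM per kb (Herpud1) with LFD. At the low end stood Hyou1 (2.36 ± 0.727 CPM per kb), Trib3, Chac1, Ern1 and Derl3, so that the chaperones with the largest fold changes were not those with the highest levels.

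Wider lists of the same pathway were compared in the same fit. None of their genes passed the adjusted threshold of edgeR. Of 32 other folding factors 27 were higher and 5 lower with HFD (84.4% higher, against 51.5% of all genes; median log2 fold change 0.36), with 6 at an unadjusted p under 0.05 in edgeR, all higher (18.8%, against 7.53% of all genes in either direction). DESeq2 called 1 of the 32 folding factors (3.12%, against 2.37% of all genes). The leading ones were Hspa13, an Hsp70-type protein of microsomes (32.1 ± 4.45 and 52.4 ± 3.11 CPM, log2 fold change 0.71 ± 0.19), the prolyl isomerase gene Ppic (0.57 ± 0.20) and Rcn1 (0.57 ± 0.21), for a calcium-binding protein of the ER. Of 25 genes for entry into the ER and N-glycosylation 22 were higher (88%, against 51.5% of all genes; median 0.21), and 2 had an unadjusted p under 0.05 in edgeR (8%, close to the 7.53% of all genes). Those were Rpn1, a subunit of the oligosaccharyltransferase (219 ± 24.1 and 354 ± 42.3 CPM, 0.69 ± 0.20), and Ssr2, of the translocon-associated complex (113 ± 5.88 and 166 ± 15.9 CPM, 0.56 ± 0.17). DESeq2 called both (8% of the 25, against 2.37% of all genes). The third in order was Ostc (0.35 ± 0.18).

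Of 24 genes for transport between ER and Golgi 20 were higher (83.3%, against 51.5% of all genes; median 0.27), with 0 at an unadjusted p under 0.05 in edgeR and 0 called by DESeq2, and Kdelr3, a receptor that returns chaperones to the ER, led with 0.57 ± 0.26, followed by Copa and Sec24d (0.46 ± 0.23 and 0.45 ± 0.26). Other genes of ER-associated degradation were mixed, with 11 of 18 higher (61.1%, median 0.01) and 0 at an unadjusted p under 0.05 in edgeR or called by DESeq2. The leading values were 0.37 ± 0.20 for Os9, -0.61 ± 0.34 for Nploc4 and -0.30 ± 0.19 for Ufd1, whose HFD libraries all lay below the LFD libraries. Among 10 other sensors and transcription factors tested 7 were higher, and 1 had an unadjusted p under 0.05 in edgeR, against 7.53% of all genes. This was Creb3l1, an ER-bound factor known to drive collagen I transcription in osteoblasts, which measured 56.1 ± 6.86 CPM with LFD and 94.6 ± 27.9 CPM with HFD (0.75 ± 0.23, unadjusted p = 0.0111 in edgeR). Atf6b and Traf2 followed with 0.37 ± 0.23 and -0.38 ± 0.25, and Eif2ak3, the gene of PERK, had -0.10 ± 0.31.

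Other targets of ATF4 and of the integrated stress response resembled the 7 listed ones in their median. Of 38 tested 21 were higher and 17 lower (median 0.06), and the 55.3% higher was near the 51.5% of all genes. An unadjusted p under 0.05 in edgeR was found for 4, all higher. That is 10.5%, against 5.18% of all genes as higher with HFD and 7.53% in either direction. Every HFD library lay above every LFD library for 5 genes (13.2%, against 8.40% of all genes). Slc7a11, the cystine transporter, measured 0.376 ± 0.324 CPM with LFD and 6.12 ± 3.29 CPM with HFD (log2 fold change 3.99 ± 0.90, edgeR adjusted p = 0.273). It was the only one of the 38 called by DESeq2 (2.63%, against 2.37% of all genes). Cebpb had 0.96 ± 0.35 and the proline synthesis gene Pycr1 0.64 ± 0.26, and the groups of these 3 genes did not overlap. Cebpb measured 107, 50.7, 44.2 and 40.9 CPM for LFD 1 to 4 and 108, 116 and 130 CPM for HFD 2 to 4. It is also abundant in myeloid cells, and its relation to their markers was not tested.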

How the data were processed

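Counts per Ensembl gene, whole numbers in 1 column per library, are as the authors deposited them. The submitters' processing notes name the mm10 build, STAR 2.5.2b and HTSeq 0.11.2, besides cutadapt, bcl2fastq 2.20 and DESeq2 1.26.0. For strand setting, multi-mapping reads and annotation release, the sources used here give nothing. Per the labels' protocols, cDNA was amplified from low input and made into paired-end libraries; no molecular identifiers are mentioned.

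The title of each library gave its diet. Counts of each pair of libraries differed beyond sampling noise (chi-square of at least 53.8 per degree of freedom). Separate animals are not stated, so the p-values reflect only how these samples varied, which may be technical. Diets were compared over 14304 genes with edgeR 4.0.16 in R 4.3.3 (TMM, filterByExpr, robust quasi-likelihood fit with diet alone, two-sided, Benjamini-Hochberg adjustment over all genes at 0.05), a procedure tested on simulated data. The common biological coefficient of variation was 0.628. List means are of log2 CPM (prior count 2), and erythroid relations of log2(CPM + 0.1). Exon lengths and coordinates are from GENCODE M21, promoter sequences from RefSeq (GRCm38.p6).

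The 32 genes, the lists and the tests were chosen with earlier results of these data known. Named are all 32 genes, with values per library for the 8 smallest p and the PERK/ATF4 genes, the 3 smallest p of each wider list, and defining cell type markers. Eif2ak3 and the collagen sum were added with their values known. The alternatives comprised other normalizations (RLE, upper quartile, globin genes removed), looser and stricter filters, no robust estimates, another threshold, omission of single libraries, a replicate block, the erythroid share as covariate, DESeq2 1.42.0, limma-voom (limma 3.58.1) and another gene length.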

Additional observations from a re-analysis of the deposited data

Results flagged for a closer look

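Each of the 32 genes was tested for a stray library among the 4 LFD libraries by Dixon's criterion, and 1 gene, Sesn2, had one. LFD 2 measured 62.0 CPM, where the other LFD libraries measured 32.1 to 33.9 CPM, so that its gap to the nearest made up 0.940 of the whole range of the group. Chance takes about 1 of 20 groups past the critical value of that criterion, and 32 groups were tested. The HFD group of 3 libraries was not tested.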

How the results depend on the processing

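Every listed chaperone except Canx kept its positive sign in all 17 alternatives. Leaving out single libraries moved the number of listed genes at an unadjusted p under 0.05 between 4 (without HFD 3) and 14 (without LFD 1), against 9 with all libraries, 13 of the 14 higher and Syvn1 lower; it was 5 without LFD 2, and edgeR called 0 of the 32 in each of these fits and 1 to 6 genes in all. The median log2 fold change ranged from 0.43 to 0.67 for chaperones, from 0.11 to 0.40 for degradation genes and from -0.11 to 0.08 for PERK/ATF4 genes, and the first exceeded the last by 0.37 to 0.71. Of the 5 genes called in all with all libraries and the settings of the report, 4 were sex-linked. DESeq2 called 361 of 22988 genes (4 of them listed), and 338 of these were among the 14304 genes tested with edgeR. The number called was 8 without a filter, 0 with 10 counts in 4 libraries (where Derl3 dropped out) and 10 at an adjusted p under 0.1. It was 28 with limma-voom and 1 with the erythroid share as covariate. That covariate also lowered the listed genes at an unadjusted p under 0.05 to 5 and the chaperone median to 0.29, and its excess over the PERK/ATF4 median turned to -0.0804; the cause was not tested. Signs turned with it for Ern1 (0.102), Herpud1 (-0.0526), Trib3 (0.3712), Ppp1r15a (0.0993), Chac1 (-0.7293) and Sesn2 (0.2715), with limma-voom for Sesn2 (0.1741), and for Canx with RLE (-0.0027) and without globin genes (-0.0052). With replicate number as a block (replicate block over libraries 2 to 4) edgeR called 0 genes, 7 listed genes had an unadjusted p under 0.05, the chaperone median was 0.67, and signs turned for the PERK/ATF4 median and Atf4 (both -0.0793) and Canx (-0.0471). Deviations of libraries with the same number had correlations of -0.0950, 0.0263 and -0.0620. Each HFD library correlated best with an LFD library of another number except HFD 3. With so few shared numbers and such different libraries, this check cannot exclude a shared batch. The numbers were not taken as pairs because nothing in the labels says that they are. Over single libraries left out, signs turned within -0.0623 to 0.1056 for Canx, -0.6053 to 0.0492 for Ern1, -2.9941 to 0.0518 for Derl3, -0.0723 to 0.2861 for Atf4, -0.5373 to 0.0838 for Trib3, -0.3756 to 0.5333 for Chac1 and -0.5942 to 0.0444 for Sesn2. With the longest transcript as length the 5 highest genes kept their order in LFD. Derl3, Chac1 and Trib3 had at most 154 counts in any library, so their values carry the widest counting error of the list.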
